A study of Mus musculus with 27 samples.

Results

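The 10 genes described here are 6 Toll-like receptors (Tlr1, Tlr2, Tlr3, Tlr4, Tlr5 and Tlr9), the co-receptors Cd14 and Ly96 (MD-2) and the adaptors Myd88 and Ticam1 (TRIF). They were chosen by name as the receptors and adaptors of microbial sensing, and all 10 were found among the 22524 genes that were counted in 27 mouse RNA-seq libraries. The study asked how far the microbial status of the donor mouse and low-dose TNF change the expression of intestinal epithelial organoids, and how these organoids relate to commonly used cell lines. Organoids are epithelial structures grown from intestinal stem cells in a gel. They were grown from the jejunum of C57BL/6J wild-type mice, young adult male cohoused littermates, with 3 cultures from each of 3 facilities. These were the specific pathogen-free (SPF) facilities SR and SE and a germ-free facility (GF). The immortalised mouse small intestinal epithelial line m-ICc12 was represented by 3 cultures and mouse embryonic fibroblasts (MEF) by 3. Each of the 9 organoid and 3 m-ICc12 cultures gave 1 library labelled untreated and 1 labelled TNF (5 ng/ml murine TNF for 8 h), and each MEF culture gave 1 untreated library. The m-ICc12 libraries came from 1 line, so their spread is not one between animals, and no source used here says whether the 3 numbered m-ICc12 or MEF samples were grown separately. The organoids hold epithelium without the stroma and immune cells of the gut wall.

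The treatment labels could not be taken at face value. In all 12 pairs the library labelled untreated is the one whose data name ends in T, and the library labelled TNF is the one whose data name does not. Of 4 genes that TNF is known to induce, Nfkbia, Tnfaip3, Nfkb2 and Relb, each had its lower values under the TNF label. It was higher there in 0 of 9 organoid cultures and 0 of 3 m-ICc12 cultures, and the groups did not overlap. Nfkbia, the inhibitor of NF-κB, was at 31.1 CPM in the organoid libraries labelled TNF and 195.7 CPM in those labelled untreated, a log2 difference of -2.66 ± 0.10 (SE, edgeR quasi-likelihood test, adjusted p = 6.4e-17). These genes go against the labels. Directions below are given by label, as the library labelled TNF minus the library labelled untreated, and read by the data names every such sign is the opposite. Levels are compared between culture types in the libraries labelled untreated. Read by the data names, these are the TNF-treated libraries of organoids and m-ICc12, set against untreated MEF, and the libraries labelled TNF are the untreated ones. Values from the libraries labelled TNF are given below where they change a call or move a called difference by over 1.5 times.

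The libraries held between 6071103 and 43843615 counts on genes. A floor of 3 counts, the most that a count of 0 allows, corresponded to 0.0657 to 0.523 CPM (read counts scaled to the size of the library), and such floors cover counting error only. The library of m-ICc12 culture M1 labelled TNF was the shallowest, and Lars2 took 13.5% of its counts. All 7 epithelial markers were above background in organoids, with a sum of 6451 to 7705 CPM in the libraries labelled untreated. In m-ICc12 the sum was 1609 to 2180 CPM, but Epcam was at 2.07 to 6.83 CPM and Cdh1 at 0.937 to 1.82 CPM, against 880.6 to 1105 and 943.8 to 1118 CPM in organoids and medians of 1.33 and 1.52 CPM in MEF. The keratin Krt8 reached 1142 to 1590 CPM in m-ICc12. The 7 enterocyte markers summed to 2.33 to 8.29 CPM in m-ICc12, against 3.68 to 17.2 CPM in MEF and 1352 to 5209 CPM in organoids. Of 7 fibroblast markers 5 were above background in MEF, with a sum of 3317 to 4376 CPM and Lum at the floor. Leukocyte markers summed to 3.51 to 15.4 CPM in organoids, with 6 of 10 at the floor, Ptprc among them.

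Toll-like receptors are membrane proteins that bind conserved parts of microbes and pass the signal on through a domain shared with their adaptors. Tlr2 together with Tlr1 binds bacterial lipopeptides, Tlr4 with Ly96 and Cd14 binds lipopolysaccharide, and Tlr5 binds flagellin, while Tlr3 and Tlr9 sense double-stranded RNA and unmethylated CpG DNA in endosomes. Most of these receptors signal through Myd88, Tlr3 signals through Ticam1, and Tlr4 uses both, towards NF-κB and interferon genes. The intestinal epithelium faces a dense microbiota, and it is known for low or restricted use of several of these receptors.

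Positions are given on GRCm38. Tlr5 (chr1:182954788-182976044, plus strand) and Ly96 (chr1:16688051-16709611, plus) are on chromosome 1, and Tlr9 (chr9:106222598-106226883, plus) and Myd88 (chr9:119335934-119341411, minus) on chromosome 9. The other surface receptors are Tlr1 (chr5:64924679-64933563, minus), Tlr2 (chr3:83836272-83841767, minus) and Tlr4 (chr4:66827584-66930284, plus), and the endosomal Tlr3 is at chr8:45395665-45411080 (minus). Cd14 (chr18:36725067-36726798, minus) and Ticam1 (chr17:56269319-56276786, minus) complete the list. Values are read counts over the exons of each gene.

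In organoids the adaptors had the highest means, the surface receptors were low, and Tlr9 was not detected. Per length of exon (CPM per kb of exon, written RPKM), the libraries labelled untreated had Ticam1 at 15.1 ± 2.01 (SD, n = 9) and Myd88 at 11.3 ± 3.40. Cd14 followed at 5.87 ± 2.68 and Ly96, the lipopolysaccharide-binding partner of Tlr4, at 4.45 ± 3.16. Among receptors, Tlr3 came first at 2.40 ± 0.677 RPKM, followed by Tlr2 at 0.890 ± 0.743 and Tlr5 at 0.732 ± 0.303. Tlr1 was at 0.267 ± 0.468 and Tlr4 at 0.131 ± 0.253 RPKM. Each member's range over the 9 libraries overlapped that of the next in this order. The members were measured in the same libraries, which a comparison of ranges does not use. Overlap therefore does not show that neighbours were level. Tlr9 had 0 counts in all 27 libraries, which allows a level of at most the floor of each library.

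The order was different in the cell lines. In m-ICc12 the libraries labelled untreated had Tlr4 at 8.63 ± 0.690 RPKM (SD, n = 3) and Cd14 at 8.57 ± 0.672, above Ticam1 at 6.47 ± 1.92 and Myd88 at 5.38 ± 0.333. The ranges of neighbours among these 4 overlapped. In MEF, Myd88 was at 12.9 ± 1.19 RPKM and Ticam1 at 6.73 ± 1.78, and their ranges were apart. Tlr2 at 3.44 ± 0.723, Tlr4 at 2.51 ± 0.464 and Ly96 at 2.41 ± 0.591 RPKM followed with overlapping ranges.

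**Figure D1:**
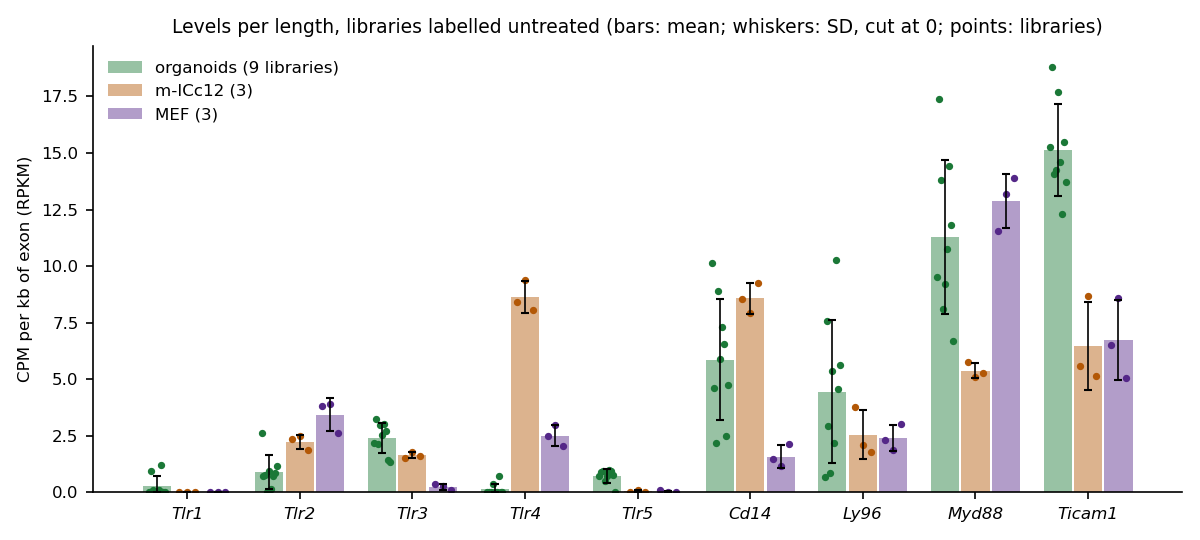
Level per length of exon (RPKM, linear axis) of the 9 detected members in the libraries labelled untreated of organoids, m-ICc12 and MEF; bars are means, whiskers the SD cut at 0, and points the libraries. Tlr4 stands at 8.63 RPKM in m-ICc12 against 0.131 in organoids, and Ticam1 is the highest bar in organoids at 15.1.

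Tlr4 had the widest difference among the members between organoids and m-ICc12. The 3 m-ICc12 libraries labelled untreated had 46.8, 52.2 and 44.9 CPM and the MEF libraries 13.8, 16.6 and 11.4 CPM. The 9 organoid libraries ranged from 0 over a median of 0.0664 to 3.99 CPM, and 6 of them were at or under 3 counts. No organoid library reached the lowest library of either other culture type. Tlr4 passed the count filter through m-ICc12 or MEF, since 2 of 9 organoid libraries had 10 or more counts. The highest organoid values came from Z917 with 127 counts and Z911 with 56 counts, while the library labelled TNF of the same cultures had 9 and 0 counts. The 2 libraries of a culture differ in treatment, so variation within a culture cannot be told apart from treatment here. The log2 difference was -5.97 ± 1.09 (SE) against m-ICc12 (adjusted p = 1.6e-04) and -4.21 ± 1.23 against MEF (adjusted p = 0.0066), and without culture Z917 these were -7.16 and -5.39. In m-ICc12 Tlr4 was above MEF by 1.74 ± 0.20 (adjusted p = 7.0e-06). With the spread estimated over all 27 libraries the adjusted p of that last difference was 0.16. Leukocytes are a cell type that expresses Tlr4 and Cd14, and their markers summed to 75.0 to 125.5 CPM in m-ICc12. This came mainly from Csf1r at 64.6 to 107.5 CPM and Cd68 at 6.92 to 17.8 CPM, while 7 of 10 markers were at the floor, Itgam at 0 and Ptprc at 0.293 to 1.51 CPM. The part of such cells in the result was not tested.

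**Figure D2:**
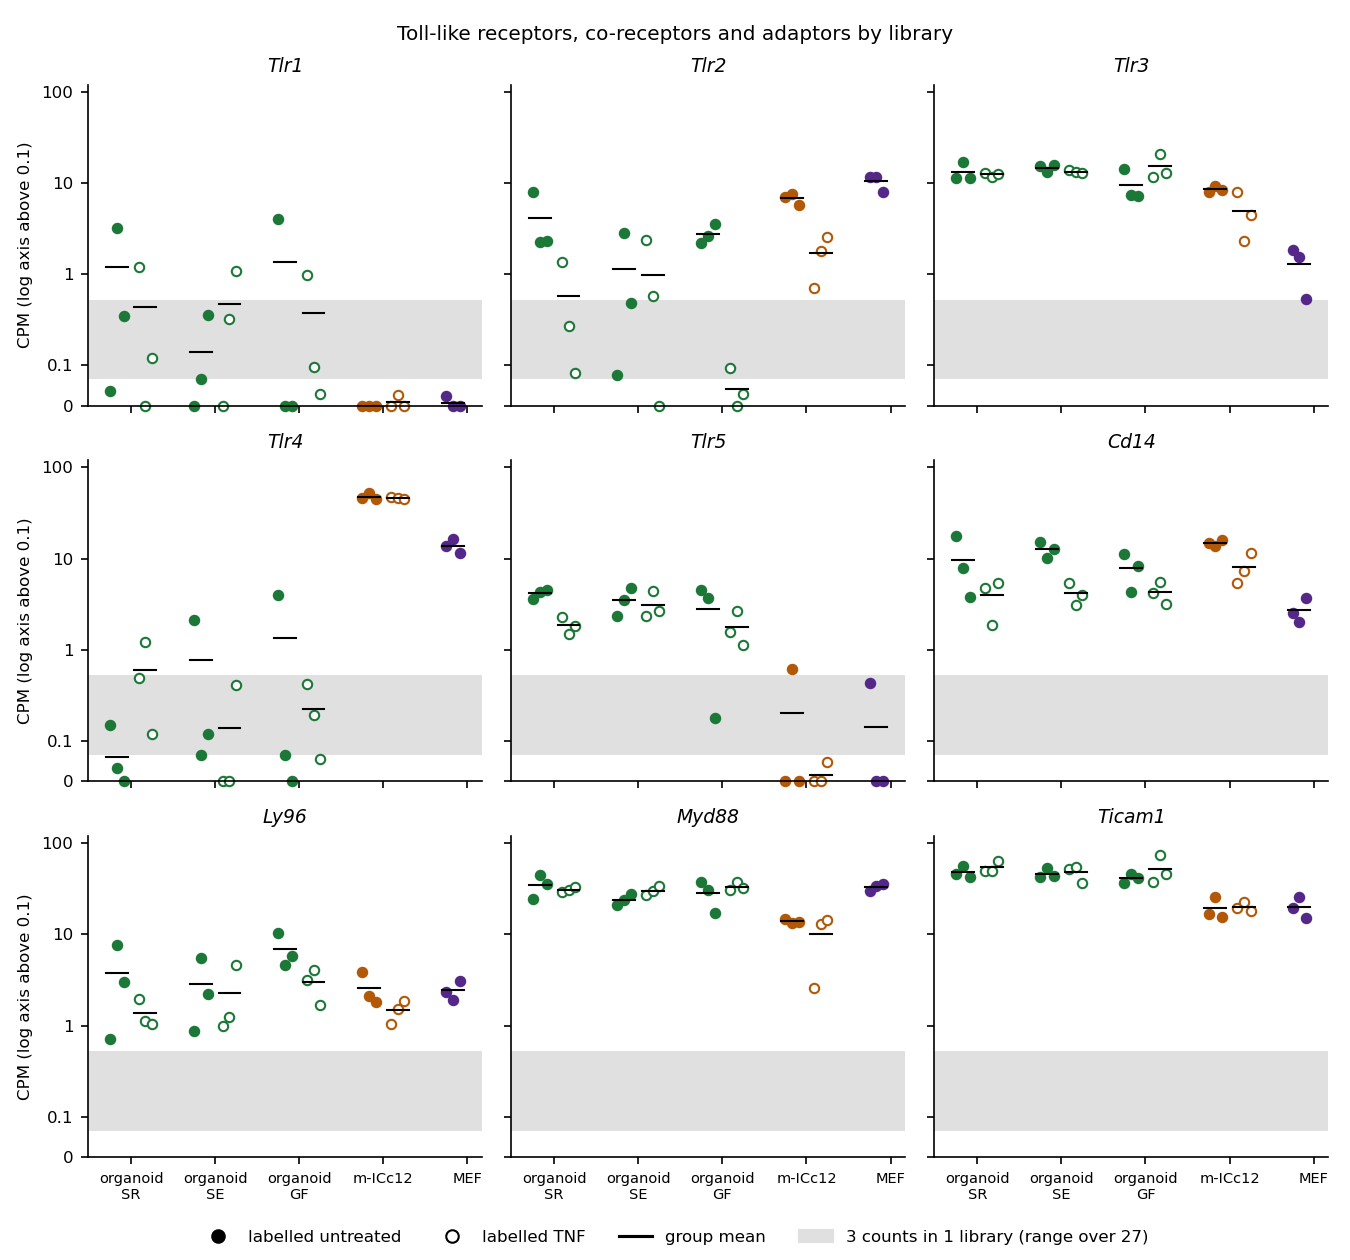
Level of the 9 detected members in each of the 27 libraries (CPM, log axis above 0.1), by facility of the organoids and by culture type; filled points are libraries labelled untreated, open points libraries labelled TNF, short lines group means, and the grey band the level of 3 counts over the libraries. Tlr4 lies between 44.5 and 52.2 CPM in the m-ICc12 libraries and near or inside the band in most organoid libraries, and Tlr5 lies above 1 CPM in all organoid libraries but that of Z919 labelled untreated.

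Tlr5, the flagellin receptor, had the opposite distribution. Organoid libraries labelled untreated ranged from 0.177 over a median of 3.72 to 4.77 CPM. The m-ICc12 libraries had 0, 0.613 and 0 CPM, and the MEF libraries 0.427, 0 and 0 CPM. Besides the low organoid library, that of Z919 with 4 counts, organoids lay above both other culture types. Tlr5 was higher in organoids by 4.08 ± 1.39 against m-ICc12 (adjusted p = 0.018) and by 4.56 ± 1.35 against MEF (adjusted p = 0.0071). It passed the count filter through organoids alone, with 10 or more counts in 8 of 9 libraries against 1 of 3 in m-ICc12 and in MEF. The filter and the test thus use the same difference. The difference from m-ICc12 rested on few detected counts: without M1 or without M3 the adjusted p was 0.051, without M2, which held all 28 counts, the log2 difference was 9.66, and DESeq2 gave no adjusted p. Without R1, which held the 18 counts in MEF, the difference from MEF was 9.61. With the libraries labelled TNF the difference from m-ICc12 was 6.70 (adjusted p = 1.0e-04). The 250 bases before the RefSeq start of Tlr5 on the plus strand (GRCm38.p6, chr1:182954538-182954787) are printed because Tlr5 was called higher in organoids than in both other culture types.

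Tlr5 promoter: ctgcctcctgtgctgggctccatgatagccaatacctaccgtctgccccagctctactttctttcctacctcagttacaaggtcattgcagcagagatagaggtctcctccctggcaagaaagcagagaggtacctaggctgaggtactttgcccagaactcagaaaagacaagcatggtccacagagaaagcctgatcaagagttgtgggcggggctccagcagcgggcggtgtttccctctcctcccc

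This window held no match to the κB consensus or to a pair of GAAA repeats set 2 bases apart, the core that interferon regulatory factors bind, on either strand. Of 32851 promoter windows of 250 bases, 3.9% held the former and 2.98% the latter.

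Tlr3, the receptor for double-stranded RNA, was present in organoids and m-ICc12 and low in fibroblasts. It ranged from 7.09 over a median of 13.2 to 16.9 CPM in organoids labelled untreated, and was 7.88, 9.33 and 8.46 CPM in m-ICc12 and 1.83, 1.54 and 0.537 CPM in MEF. All libraries of organoids and m-ICc12 lay above all of MEF. The log2 difference from MEF was 3.27 ± 0.48 for organoids (adjusted p = 1.9e-05) and 2.66 ± 0.52 for m-ICc12 (adjusted p = 7.4e-04). Organoids and m-ICc12 overlapped, with a difference of 0.57 (95% interval -0.09 to 1.24). With the libraries labelled TNF in place of those labelled untreated, Tlr3 was higher in organoids than in m-ICc12 by 1.52 (adjusted p = 0.0013), and the difference of m-ICc12 from MEF was 1.89 with an adjusted p of 0.056. The antisense gene Gm45542 overlaps Tlr3, and reads of the pair could not be told apart where strand was not used.

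Tlr2, which binds lipopeptides, had its highest mean in MEF, 10.4 ± 2.18 CPM, and its lowest in organoids, 2.68 ± 2.24 CPM. The MEF libraries had 11.5, 11.7 and 7.86 CPM and the m-ICc12 libraries labelled untreated 7.06, 7.51 and 5.67 CPM. Organoids ranged from 0.0763 over a median of 2.31 to 7.90 CPM. One organoid library, Z908, reached the range of the cell lines. Organoids were lower than MEF by -1.93 ± 0.74 (adjusted p = 0.03), a call lost without R1 or R2 (adjusted p = 0.092 and 0.086). The difference of organoids from m-ICc12, -1.30 (95% interval -2.84 to 0.24), did not pass. Nor did that of m-ICc12 from MEF, -0.67 (-1.31 to -0.02, edgeR unadjusted p = 0.064, adjusted p = 0.098). Its interval leaves out 0 because it is a normal interval, narrower than the test allows. Without R3 the difference of m-ICc12 from MEF was -0.81 with an adjusted p of 0.049. With the libraries labelled TNF, the difference from MEF was -4.36 for organoids (adjusted p = 0.0016) and -2.55 for m-ICc12 (adjusted p = 0.002).

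Its partner Tlr1 was detected unevenly in organoids, with 0 to 129 counts. In the libraries labelled untreated, 5 of 9 were at or under the floor, and Z917 with 4.06 CPM and Z909 with 3.17 CPM stood far above the other 7. It had 0 counts in the 3 m-ICc12 libraries labelled untreated and at most 1 count in MEF. The organoid mean was at least 11.9-fold higher than the floor of the m-ICc12 libraries, a bound that rests on these 2 cultures.

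Among the co-receptors, Cd14, which hands lipopolysaccharide to Tlr4, was higher in organoids and m-ICc12 than in MEF in the libraries labelled untreated. For organoids this call was lost with the libraries labelled TNF. It was at 3.76 to 17.5 CPM with a median of 10.2 in organoids labelled untreated. The m-ICc12 libraries had 14.8, 13.7 and 16.0 CPM and the MEF libraries 2.54, 2.02 and 3.68 CPM. Organoids and MEF did not overlap, by a narrow gap. Cd14 was higher than in MEF by 1.91 ± 0.52 in organoids (adjusted p = 0.004) and by 2.39 ± 0.36 in m-ICc12 (adjusted p = 9.5e-05). With the libraries labelled TNF the difference from MEF was 0.61 for organoids (adjusted p = 0.24) and 1.57 for m-ICc12 (adjusted p = 0.022), and that of organoids from m-ICc12, -0.52 in the libraries labelled untreated (95% interval -1.33 to 0.29), was -0.96 with an adjusted p of 0.048. Ly96 was at 0.708 to 10.5 CPM in organoids, 1.83 to 3.87 in m-ICc12 and 1.91 to 3.11 in MEF. Its ranges overlapped in the 3 comparisons, with a log2 difference of 0.83 (-0.68 to 2.34) between organoids and m-ICc12 and 0.91 (-0.57 to 2.38) between organoids and MEF. With the libraries labelled TNF the latter was -0.14.

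The adaptors differed by smaller and better determined amounts. Ticam1 was at 36.8 to 56.3 CPM in organoids labelled untreated, at 16.7, 26.0 and 15.4 CPM in m-ICc12 and at 19.5, 25.7 and 15.2 CPM in MEF. Organoids lay above both others without overlap, by 1.25 ± 0.19 (adjusted p = 3.3e-05) and 1.19 ± 0.19 (adjusted p = 3.2e-05). Myd88 was at 17.2 to 44.8 CPM in organoids, at 14.8, 13.2 and 13.6 CPM in m-ICc12 and at 29.8, 34.0 and 35.8 CPM in MEF. Here m-ICc12 was the low culture type, by 1.10 ± 0.28 below organoids (adjusted p = 0.0025) and with a difference of -1.31 ± 0.20 from MEF (adjusted p = 1.0e-04). Organoids and MEF differed by -0.17 (95% interval -0.65 to 0.31). Myd88 lies within the span of Slc22a14 and overlaps Acaa1a, so its counts could hold reads of these genes.

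In all, 4 of 8 tested members were called between organoids and m-ICc12, 3 higher in organoids and 1 lower, where 60.9% of all genes were called (31.6% higher, 29.3% lower). Between organoids and MEF 6 of 8 were called, 4 higher and 2 lower, against 67.2% of all genes (34.6% higher, 32.6% lower). Between m-ICc12 and MEF 4 of 7 were called, 3 higher in m-ICc12 and 1 lower, against 59.3% (28.1% higher, 31.2% lower). The members were called about as often as genes in general. Tlr4 and Tlr5 entered the tallies with organoids through the group where they were high. When both libraries of a culture were summed, 8 members passed between organoids and m-ICc12, Tlr1, Tlr2, Tlr3 and Cd14 in addition. The share of all genes called with summed libraries is not given here. Over the 5 other settings, summing among them, 7726 to 9516 genes were called, against 7899 in the main fit. The rise is therefore not read as particular to the members.

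**Figure D3:**
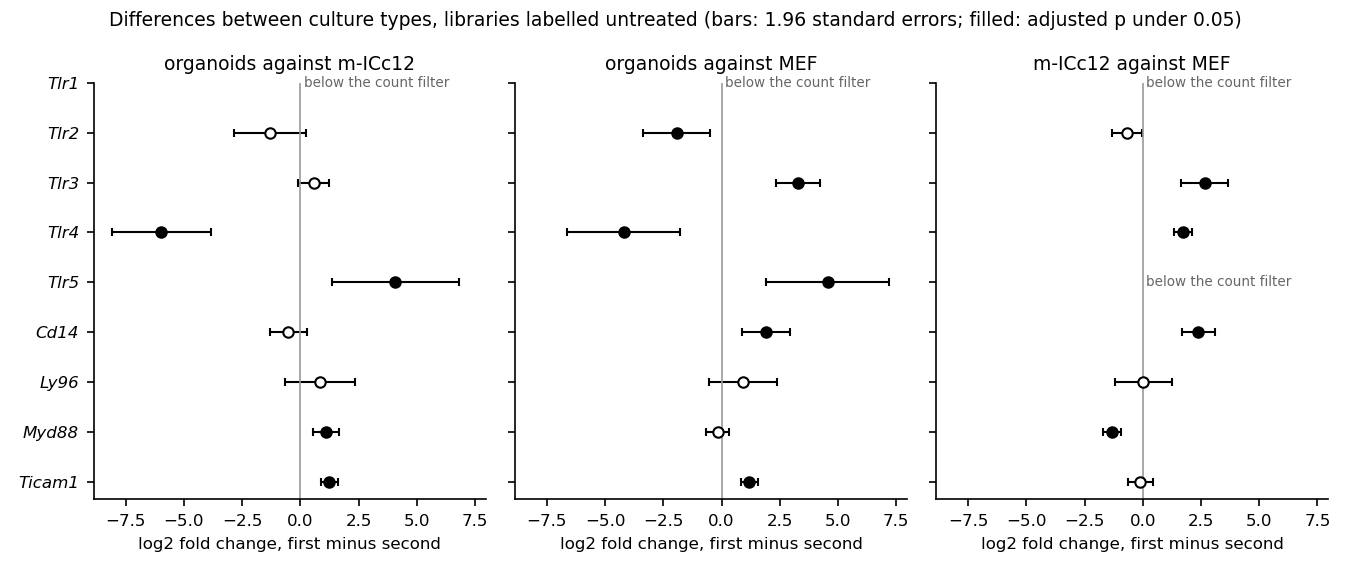
Log2 fold change of the members in 3 comparisons of culture types among the libraries labelled untreated; points are estimates, bars are 95% intervals, filled points have an adjusted p under 0.05, and members without enough counts are marked. Tlr4 lies left of 0 in both organoid comparisons (-5.97 and -4.21) and Tlr5 to the right (4.08 and 4.56).

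Between the labels, Cd14 was the member that passed the test in organoids. This test compared the 2 groups of libraries and did not pair those of a culture. The libraries labelled untreated had 17.5, 7.96 and 3.76 CPM in the SR cultures Z908 to Z910, 15.4, 10.2 and 12.6 CPM in the SE cultures Z911 to Z913, and 11.4, 4.35 and 8.25 CPM in the GF cultures Z917 to Z919. Those labelled TNF had 4.76, 1.87 and 5.35, then 5.43, 3.12 and 3.97, and then 4.23, 5.55 and 3.21 CPM in the same order. The library labelled TNF was lower in 7 of 9 cultures, Z910 and Z918 being the others, and the groups overlapped. The log2 difference was -1.29 ± 0.31 (SE, edgeR quasi-likelihood test, adjusted p = 0.022), a level 2.45-fold lower. Cd14 was the 1 called among 7 tested members, where 1.39% of all genes were called (0.124% higher, 1.26% lower). The call was close to the threshold: it was lost without Z908, Z909, Z911, Z912, Z913 or Z917 (adjusted p between 0.055 and 0.086), while the difference stayed between -1.28 and -1.18 in these fits. With all cultures, the 5 other settings kept the call (adjusted p between 0.0014 and 0.039, edgeR or DESeq2). The 5 stem cell markers summed to 801.2 to 1830 CPM in the libraries labelled TNF and 1186 to 3015 CPM in those labelled untreated, but they did not move together. The median of Olfm4 was 182 against 787.6 CPM and that of Ascl2 8.07 against 29.8 CPM, while Lgr5 was at 167 against 154.2, Smoc2 at 561.3 against 532.6 and Axin2 at 112.8 against 126.7 CPM. Their part in the result was not tested. In such bulk samples fewer cells of a type and less RNA per cell cannot be told apart.

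Tlr2 had the largest estimate of the 7. In the libraries labelled untreated it had 7.90, 2.24 and 2.31 CPM in SR, 0.0763, 2.84 and 0.477 CPM in SE, and 2.20, 2.59 and 3.50 CPM in GF cultures. In those labelled TNF it had 1.37, 0.272 and 0.0798, then 2.35, 0.574 and 0, and then 0.0939, 0 and 0.0281 CPM. It was lower in 8 of 9 cultures, with Z911 the exception, and 5 of 9 libraries labelled TNF were at or under 3 counts. The log2 difference was -2.39 ± 0.92 (95% interval -4.20 to -0.57, adjusted p = 0.39). With the culture as a block it was -3.77 with an adjusted p of 0.036, and 2 members, Tlr2 and Cd14, then passed, while the calls over all genes went from 168 to 397. With all 27 libraries in 1 fit it was -3.07 (adjusted p = 0.034). Without Z911 it was -3.29 (adjusted p = 0.09).

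The part of the Tlr2 promoter that lies before any annotated exon is shown because Tlr2 was low in the libraries labelled TNF of both organoids and m-ICc12. It runs on the minus strand (GRCm38.p6, chr3:83841768-83841858), and the capitals mark the bases that match the κB consensus, the sequence that NF-κB proteins bind.

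Tlr2 promoter: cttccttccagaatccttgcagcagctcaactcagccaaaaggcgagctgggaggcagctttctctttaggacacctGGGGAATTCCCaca

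The capitals hold 2 overlapping matches, which lie 163 to 173 bases before the RefSeq start. Of the other members with a RefSeq window, Tlr3 had 1 match to the κB consensus, 202 to 211 bases before its start, and Myd88 had 1 match to the paired GAAA repeat. Tlr1, Tlr9 and Ticam1 had neither. A match is a description of the letters and was not tested as a site.

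The other members overlapped between the labels in organoids and did not pass. Ly96 averaged 4.55 ± 3.23 CPM under the untreated label and 2.21 ± 1.40 CPM under the TNF label (SD of 9 cultures), a log2 difference of -1.04 (95% interval -2.04 to -0.05, adjusted p = 0.57), lower in 6 of 9 cultures. Tlr5 was at 3.51 ± 1.45 and 2.26 ± 0.958 CPM, a difference of -0.64 (-1.57 to 0.29), lower in 7 of 9. For Tlr3 the difference was 0.12 (-0.26 to 0.49), for Myd88 0.10 (-0.19 to 0.40) and for Ticam1 0.18 (-0.05 to 0.42) (95% intervals in parentheses). Tlr1 and Tlr4 had too few counts for a test.

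**Figure D4:**
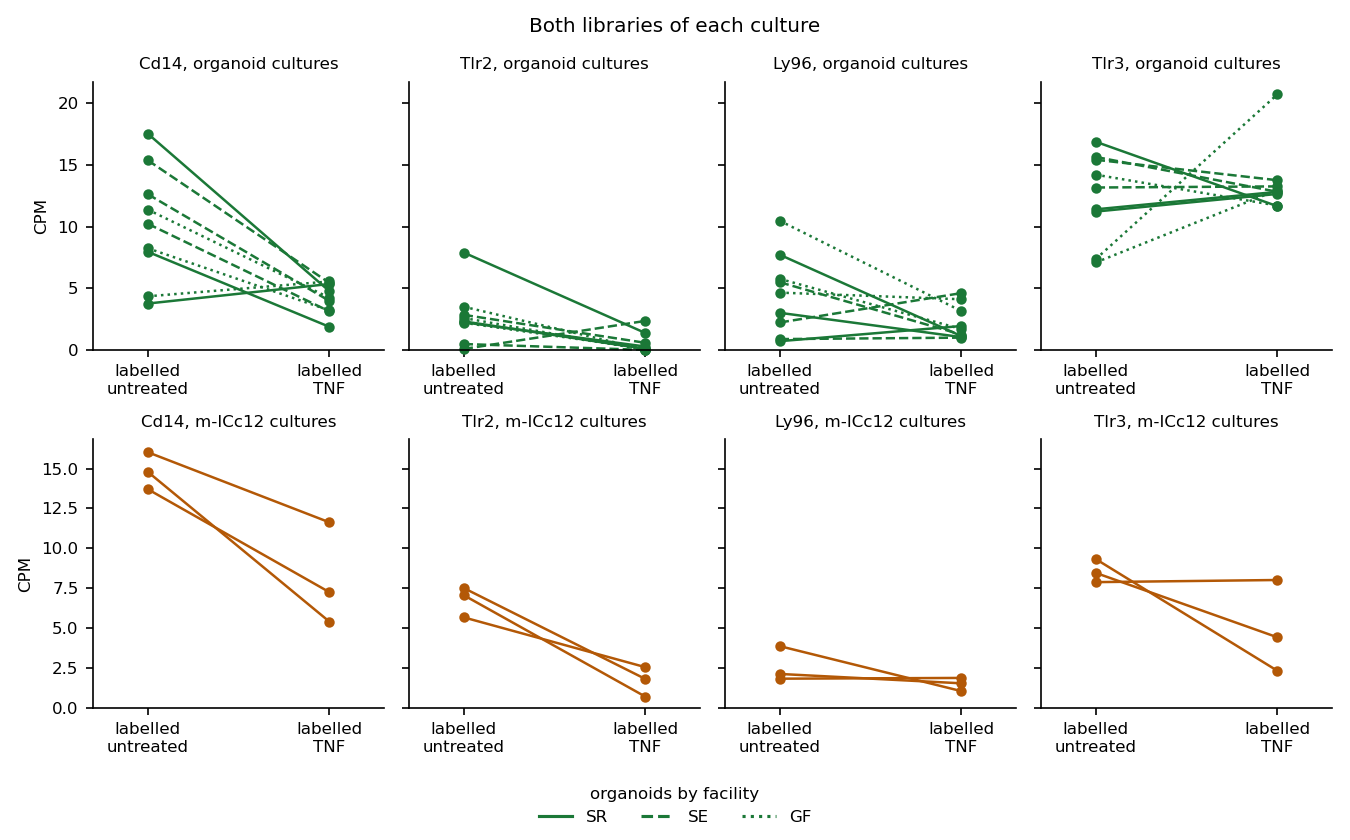
Cd14, Tlr2, Ly96 and Tlr3 in both libraries of each culture (CPM, linear axis), organoids above with the facility as line style and m-ICc12 below; each line joins the library labelled untreated and the library labelled TNF of 1 culture. Cd14 goes down in 7 of 9 organoid lines and in 3 of 3 m-ICc12 lines, and Tlr3 has no common direction in organoids. The m-ICc12 lines join libraries of the same number, and these numbers did not pair the libraries (mean r 0.031).

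In m-ICc12, 0 of 7 tested members passed, where 0.11% of all genes were called. The smallest unadjusted p-values of the edgeR test were 0.0072 for Tlr2 and 0.034 for Cd14. How many of all genes lay as low is not given here, and DESeq2 called 0 members as well. Tlr2 had 7.06, 7.51 and 5.67 CPM in the libraries labelled untreated of M1 to M3 and 0.697, 1.81 and 2.55 CPM in those labelled TNF. Cd14 had 14.8, 13.7 and 16.0 CPM against 5.40, 7.25 and 11.6 CPM. Both genes were lower under the TNF label without overlap, and 9.38% of all genes were without overlap in one or the other direction. The numbers M1 to M3 did not pair the libraries (mean r 0.031), so directions by number are not paired replicates. The log2 difference was -1.93 ± 0.62 for Tlr2 (95% interval -3.15 to -0.70, adjusted p = 0.81) and -0.84 ± 0.36 for Cd14 (-1.55 to -0.13, adjusted p = 1). The value of M1 labelled TNF rested on 4 counts for Tlr2 and 31 for Cd14.

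Tlr4, the most abundant receptor in m-ICc12, was nearly level between the labels, with 46.8, 52.2 and 44.9 CPM against 47.4, 46.2 and 44.5 CPM and a difference of -0.05 (95% interval -0.41 to 0.32). Myd88 was at 14.8, 13.2 and 13.6 CPM in the libraries labelled untreated and at 2.61, 13.1 and 14.2 CPM in those labelled TNF. The low value is that of M1, the shallow library, with 15 counts. The differences of Tlr3, -0.82 (-1.83 to 0.19), Ly96, -0.77 (-2.41 to 0.87), and Ticam1, 0.07 (-0.48 to 0.62), did not pass.

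Tested as an interaction, 0 of 8 members differed in their response between m-ICc12 and organoids, where 0.159% of all genes did. The smallest unadjusted p was that of Tlr3 (0.043, adjusted p = 0.74 with edgeR), with a difference between responses of -0.96 ± 0.45. The differences for Tlr2, 0.41 (95% interval -2.75 to 3.56), and Cd14, 0.43 (-0.70 to 1.56), left room for unlike responses in either direction.

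The facility of the donor mouse moved no member past the test. Between GF and SPF organoids labelled untreated, 0 of 7 members were called (0.0325% of all genes), and the smallest unadjusted p was 0.13, for Tlr3 (edgeR). As a ratio of means, Ly96 had the widest gap of the 7 tested members, 6.96 ± 3.09 CPM in GF (SD, n = 3) against 3.34 CPM in the 6 SPF cultures, with overlapping values and a log2 difference of 1.06 ± 0.73 (SE). Between SE and SR organoids, edgeR called 0 of 7 members and 0% of all genes (35 genes without Z909), and Myd88 had the smallest unadjusted p. Myd88 was at 20.9, 23.8 and 27.7 CPM in SE and at 24.5, 44.8 and 35.5 CPM in SR, overlapping in 1 library, with a difference of -0.54 ± 0.27 (unadjusted p = 0.068, adjusted p = 1). DESeq2 called 0 members in both comparisons.

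Tlr2 was the member whose label difference varied most with facility. In the GF cultures it had 70, 78 and 79 counts in the libraries labelled untreated and 2, 0 and 1 counts in those labelled TNF. In SE the counts were 2, 87 and 12 against 26, 18 and 0, and in SR 212, 65 and 40 against 48, 9 and 2. The GF libraries labelled TNF were thus all at or under the floor, and in SE the cultures did not share a direction. The difference between the responses of GF and SPF organoids was -4.25 ± 1.94 (unadjusted p = 0.039, adjusted p = 1), and that of Tlr3 was 0.78 ± 0.39 (unadjusted p = 0.059, adjusted p = 1). Of 9 tested members 0 passed with edgeR, where 0% of all genes were called.

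The other receptors of the family were at or near the floor. Tlr8 and Tlr11 had 0 counts in all libraries. Tlr6, the other partner of Tlr2, was detected in MEF (0 to 60 counts) and at most 2 counts in organoids. Tlr7 reached at most 19 counts in any library, and Tlr12 and Tlr13 were counted in m-ICc12, at up to 24 and 22 counts. In organoids 0 of these 6 passed the filter on low counts.

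Among accessory and trafficking proteins, Unc93b1 and Lbp differed between culture types. Unc93b1, which carries endosomal receptors such as Tlr3 from the endoplasmic reticulum, was at 12.5 ± 4.44 CPM in organoids labelled untreated. It was at 1 count in each of the m-ICc12 libraries labelled untreated and at most 7 counts in MEF (edgeR adjusted p = 5.5e-09 and 2.8e-07, organoids against each). In these comparisons it passed the count filter through organoids alone. The filter and the test thus use the same difference. Tlr3 at 8.56 ± 0.728 CPM in the m-ICc12 libraries labelled untreated stood beside 1 count of Unc93b1 in each of them. Among the m-ICc12 libraries labelled TNF, Unc93b1 reached 34 counts. Lbp, the serum protein that extracts lipopolysaccharide for Cd14, was at 300.1 ± 57.8 CPM in m-ICc12 against 0.592 ± 0.802 in organoids and 0.220 ± 0.0424 in MEF (adjusted p = 8.4e-11 for organoids and 6.0e-12 for MEF, each against m-ICc12). In the list of 9 such genes, 2 were higher and 2 lower among 7 tested between organoids and m-ICc12, where 60.9% of all genes were called. Besides Unc93b1 and Lbp, these were Cnpy3 (higher by 0.55 ± 0.14) and the chaperone Hsp90b1 (-0.65 ± 0.11). Between the labels 0 of 6 passed in organoids and in m-ICc12, and Unc93b1 was the gene of this list with a difference between their responses (4.26 ± 0.85, adjusted p = 0.028), which rests on 0 to 34 counts in m-ICc12.

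Of 4 further adaptors, Tirap, which bridges Tlr2 and Tlr4 to Myd88, was at 23.4 ± 4.92 CPM in organoids, 27.2 ± 0.506 in m-ICc12 and 32.0 ± 8.06 in MEF. Ticam2, which links Tlr4 to Ticam1, had 0 counts in all libraries; it overlaps Tmed7 on the same strand, where reads may not have been assigned. Pik3ap1, an adaptor to phosphoinositide 3-kinase, was at 13.5 CPM in organoids and 0.116 CPM in m-ICc12 (edgeR adjusted p = 2.0e-07). It too passed the count filter through organoids.

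Downstream of the receptors, 4 genes of the lists of kinases and ligases, transcription factors and inhibitors were called between the labels in organoids, where 1.39% of all genes were. Read by the data names, the directions that follow are the opposite. Of 18 tested kinases and ligases, 0 were higher and 2 lower under the TNF label, with a median difference of -0.02 against 0.00 over all genes. These were Ikbke, the inducible IKK-related kinase (67.0 against 134.7 CPM, -1.01 ± 0.11, adjusted p = 9.5e-07), and Traf3, a ubiquitin ligase on the route from Ticam1 (32.2 against 47.6 CPM, -0.57 ± 0.12, adjusted p = 0.0066). Each was lower in 9 of 9 cultures. Of 8 transcription factors 1 was higher, Irf8 (178.7 against 132.3 CPM, 0.43 ± 0.10, adjusted p = 0.017), in 9 of 9 cultures. Of 7 tested inhibitors 1 was lower, Tnip1, which restrains NF-κB (45.3 against 87.2 CPM, -0.95 ± 0.10, adjusted p = 8.6e-07). In m-ICc12, 0 of 18 kinases and ligases, 0 of 7 transcription factors and 0 of 8 inhibitors passed.

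Between organoids and m-ICc12, 9 of 19 kinases and ligases passed, 4 higher in organoids and 5 lower, where 60.9% of all genes were called. The smallest p belonged to Chuk (69.2 against 180.9 CPM, -1.36 ± 0.16), Ikbke (1.45 ± 0.18), Tab3 (-1.24 ± 0.23) and Irak4, the first kinase that Myd88 recruits (31.9 against 14.4 CPM, 1.17 ± 0.23). Of the 8 transcription factors 2 were higher and 3 lower, with Irf8 higher by 3.37 ± 0.24 and Rela, a subunit of NF-κB, at 56.1 against 101.2 CPM (-0.82 ± 0.15). Of 8 inhibitors 1 was higher and 3 lower, among them Sigirr, a receptor that dampens Toll-like receptor signalling (-1.25 ± 0.20), and the phosphatase Dusp1 (1.84 against 53.2 CPM, -4.81 ± 0.50). Against MEF, where 7 of 19 kinases and ligases were higher and 8 lower beside 67.2% of all genes called, Irak4 (31.9 against 5.16 CPM, 2.64 ± 0.27) and Sigirr (5.64 ± 0.36) were higher in organoids.

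Across the 18 organoid libraries, centred within each label, the members shared little of their variation. The highest correlations of log2 CPM between members were 0.63 for Tlr5 with Myd88 and 0.56 for Tlr3 with Tlr5, and Cd14 and Tlr2 had -0.12. The genes most like each member among 12103 others were Fam151b (0.91) and Gpr155 (0.88) for Tlr5, Taf9b (0.86) and Prdx3 (0.84) for Tlr3, and Hist1h1c (0.82) and Tnfrsf21 (0.81) for Cd14. They were Hdac1 (0.81) and Mrpl19 (0.81) for Tlr2, Trip13 (0.78) and Zswim9 (0.77) for Ly96, Spag1 (0.84) and 0610040J01Rik (0.81) for Myd88, and Hadhb (0.78) and Syt3 (0.74) for Ticam1. Libraries of a culture, their depth and the few counts of Tlr2 and Tlr5 enter these values, which are descriptions over 18 libraries.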

How the data were processed

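The authors trimmed reads with Trimmomatic, aligned them with STAR to GRCm38 (Ensembl release 91) and counted them per gene. The submitters' processing notes name STAR 2.5.4b and featureCounts, the study's methods GenomicRanges. Strand use and the treatment of multimapping reads are not given in the sources used here. The deposited values are raw counts for 22524 genes per library. Here 22291 Ensembl identifiers were named from GENCODE vM21 (GRCm38), whose exon lengths gave RPKM, and promoter sequences came from RefSeq (GRCm38.p6).

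Levels are CPM with TMM factors over 27 libraries (R 4.3.3, edgeR 4.0.16, Python 3.11.15). Genes needed 10 or more counts in no fewer than 50% of the samples of any group to be tested. Each of 9 comparisons was fitted on all genes of the groups compared, with TMM normalisation and edgeR's quasi-likelihood test, without covariates. A call is a Benjamini-Hochberg adjusted p under 0.05 over all genes tested. The standard error is the absolute log2 difference divided by the square root of the F statistic, and 95% intervals are normal intervals from it. With few libraries such intervals are narrower than the test allows, so 1 can leave out 0 where the unadjusted p is above 0.05. Level comparisons used the libraries labelled untreated. The fitting steps were checked on simulated counts in which 200 genes had known changes. Alternatives were DESeq2 1.42.0, all genes with at least 1 count, all 27 libraries in 1 fit, the facility as a covariate, a block for the culture or replicate number, summed libraries, the libraries labelled TNF in place of those labelled untreated, and each culture left out.

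Groups follow the sample labels. Both libraries of an organoid culture come from the same mouse: their deviations from the label means correlated with a mean r of 0.171 (0.082 to 0.311), and in 9 of 9 cultures the own partner was the closest. The named genes are the 10 members, the pathway genes called in a comparison (up to 4 per list by smallest p, examples of these in the text), and the 2 genes with the highest correlation to each member above background. The members, pathway lists and marker lists were chosen with earlier results of these data known. Nothing says that the 3 m-ICc12 or MEF libraries of a group were cultured separately, so their p-values may measure technical spread.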

Additional observations from a re-analysis of the deposited data

Results flagged for a closer look

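In 14 groups of 9 organoid libraries (7 members, each label), the highest and lowest log2 CPM were compared with the others by Dixon's ratio, whose critical value for 9 libraries is 0.493, and chance flags about 1 in 20 groups. Tlr3 in the libraries labelled TNF had its highest value in Z918 with 20.7 CPM (646 counts, ratio 0.711). Tlr5 in the libraries labelled untreated had its lowest value in Z919 with 0.177 CPM (4 counts, ratio 0.770), while the library of this culture labelled TNF had 40 counts.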

How the results depend on the processing

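Of 556 values of 41 member differences under other settings, 520 kept their direction and side of the threshold, 14 lost a call, 10 gained one and 12 changed sign. In organoids the number of members called between the labels, 1, was 2 with all 27 libraries in 1 fit and 0 to 1 when each culture was left out. Between organoids and m-ICc12 the number called, 4, was 8 with summed libraries. Calls over all genes there, 7899, ranged from 7726 to 9516 over the 5 other settings. In the other 7 comparisons the number of members called stayed within 1.5 times. The sign of uncalled differences changed for Tlr3 between the labels of organoids without Z918 (range over cultures left out -0.05 to 0.21), between those of m-ICc12 for Myd88 (-0.78 to 0.03) and Ticam1 (-0.01 to 0.25) without M1 and for Tlr4 without M2 (-0.09 to 0.03), and between organoids and MEF for Ly96 with the libraries labelled TNF (-0.14). Between m-ICc12 and MEF, Ly96 was -0.70 with the libraries labelled TNF and -0.04 with summed libraries, and -0.36 to 0.25 over cultures left out, below 0 without M1 or R2; Ticam1 was -0.38 to 0.17, above 0 without M3 or R2. The causes were not tested. Over all genes, the calls between the labels of m-ICc12, 13, ranged from 6 to 93, those between GF and SPF organoids, 4, from 2 to 26, those between SE and SR organoids, 0, from 0 to 35 (the last without Z909), and those of the difference between the responses of m-ICc12 and organoids, 21, from 10 to 103 (the last with the block). Depth limits Tlr1, Tlr4 and Tlr9 in organoids and the counts of M1 labelled TNF.

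With the culture as a block, 2 members (Tlr2, -3.77, and Cd14, -1.23) were called between the labels in organoids. For m-ICc12 the numbers did not pair the libraries (mean r 0.031, 0 of 3 pairs over 0.1, 1 of 3 closest to its own number), and the block took the calls over all genes from 13 to 6 and called 0 members. In m-ICc12 against MEF the block gave Ly96 as -0.01. It changed no other call of a member.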
